A study of Mus musculus with 6 samples.

Results

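A run of neighbouring genes on distal mouse chromosome 14 differed between the libraries labelled Shox2-/- and those labelled wild type, with a change of direction part of the way along it. From Lpar6 to Gpc5, 44 of 46 tested genes were higher in the libraries labelled Shox2-/-, with a median log2 change of 0.70. From Gpc6 to Pcca, the next genes along the chromosome, 10 of 10 were lower, with a median of -0.39. The set was named as 58 genes by symbol and position, 48 in the first stretch and 10 in the second, of 30631 genes listed in all. Rows were found for 57 of the 58. Diap3 is no symbol of these tables, and RefSeq gives it as a synonym of Diaph3, a gene between the members whose values are given with the other non-members. A further gene, Epsti1, was too low to be tested, which left 56 among 17034 tested genes. The names were chosen from the difference between the same libraries, so the changes of members are given as a description without a test.

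Embryonic stem cells of the mouse were grown in hanging drops into sinoatrial node-like cardiomyocytes, the pacemaker cells of the heart. At stage 7+1 day CD166-positive cells were sorted (Alcam is the gene of this surface protein), and their RNA was sequenced. There were 3 libraries labelled wild type (Shox2+/+), called WT1, WT2 and WT3 here, and 3 labelled Shox2-/-, called KO1, KO2 and KO3. Shox2 is a homeodomain factor that pacemaker development requires. Both groups had the same feeder cells, differentiation and sort. The titles of KO1, KO2 and KO3 share a prefix that may name a clone, whereas those of WT1, WT2 and WT3 each have their own. Clone and genotype thus cannot be told apart. The sources do not describe the allele, nor do they say that cultures were separate within a label, so the spread may be technical in part.

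Values are normalized counts, that is, reads per gene divided by 1 scaling factor per library. The libraries held 13504683 to 34650564 reads in genes, with the fewest in WT1 and KO1. WT1 and WT2 were closer to each other than the other 14 pairs of libraries were: over genes with a mean of at least 100, the SD of their log2 differences was 0.19, against 0.35 to 0.78. They still differed beyond counting error at 15.4% of these genes and were kept as separate samples. The titles of WT1, WT2 and KO3 carry the same label, Diff9, which is not explained. If WT1 and WT2 are not independent, SEs and counts of groups that do not overlap rest on fewer than 3 wild type samples. Shox2 itself had 89.6, 83.4 and 31.4 normalized counts in WT1, WT2 and WT3 and 201, 548 and 373 in KO1, KO2 and KO3, so its reads were higher under the label Shox2-/-. Because the allele is not described, this neither contradicts nor checks the labels, and directions hereafter are between labels. Alcam was at 6591, 6526 and 5841 and 4176, 5312 and 4304. Summed over 15 markers of sinoatrial cardiomyocytes, the level was 16573 to 24348 in the wild type libraries and 18711 to 25072 in those labelled Shox2-/-. None of the 15 was at 0 in every library. Gene by gene, 6 were higher and 9 lower under the label Shox2-/-, with a median log2 change of -0.31. The 15 include Shox2 and Alcam, so they are no separate check of the cells.

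The chromosome end studied here corresponds largely to the long arm of a human acrocentric chromosome. Clusters of broadly expressed genes alternate in it with long gene-poor stretches that hold protocadherins and other genes of neural adhesion. The members have little in common in function. They include Rb1, which restrains entry into S phase, Spry2, which damps receptor tyrosine kinase signalling, the nuclease gene Dis3 and a pair of adjacent glypican genes, Gpc5 and Gpc6, at which the direction turned. Of the tested members, 30 lie on the plus strand and 26 on the minus strand.

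Over the whole first stretch, the groups did not overlap for 30 of 46 tested members, which were higher in KO1, KO2 and KO3 than in any wild type library. Over all tested genes 12.8% did the same, and 51.8% had a log2 change above 0. In the second stretch 5 of 10 members were lower in KO1, KO2 and KO3 than in any wild type library, where over all tested genes the share was 10.8%, and 48.2% had a log2 change below 0. The rule chose the members from this contrast, so the difference from these shares is no evidence about them. In limma, 0 of all 17034 genes (0%) had an adjusted p under 0.05, while 2411 (14.2%) had an unadjusted p under 0.05 and limma voom with sample quality weights called 303 (1.78%).

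**Figure D1:**
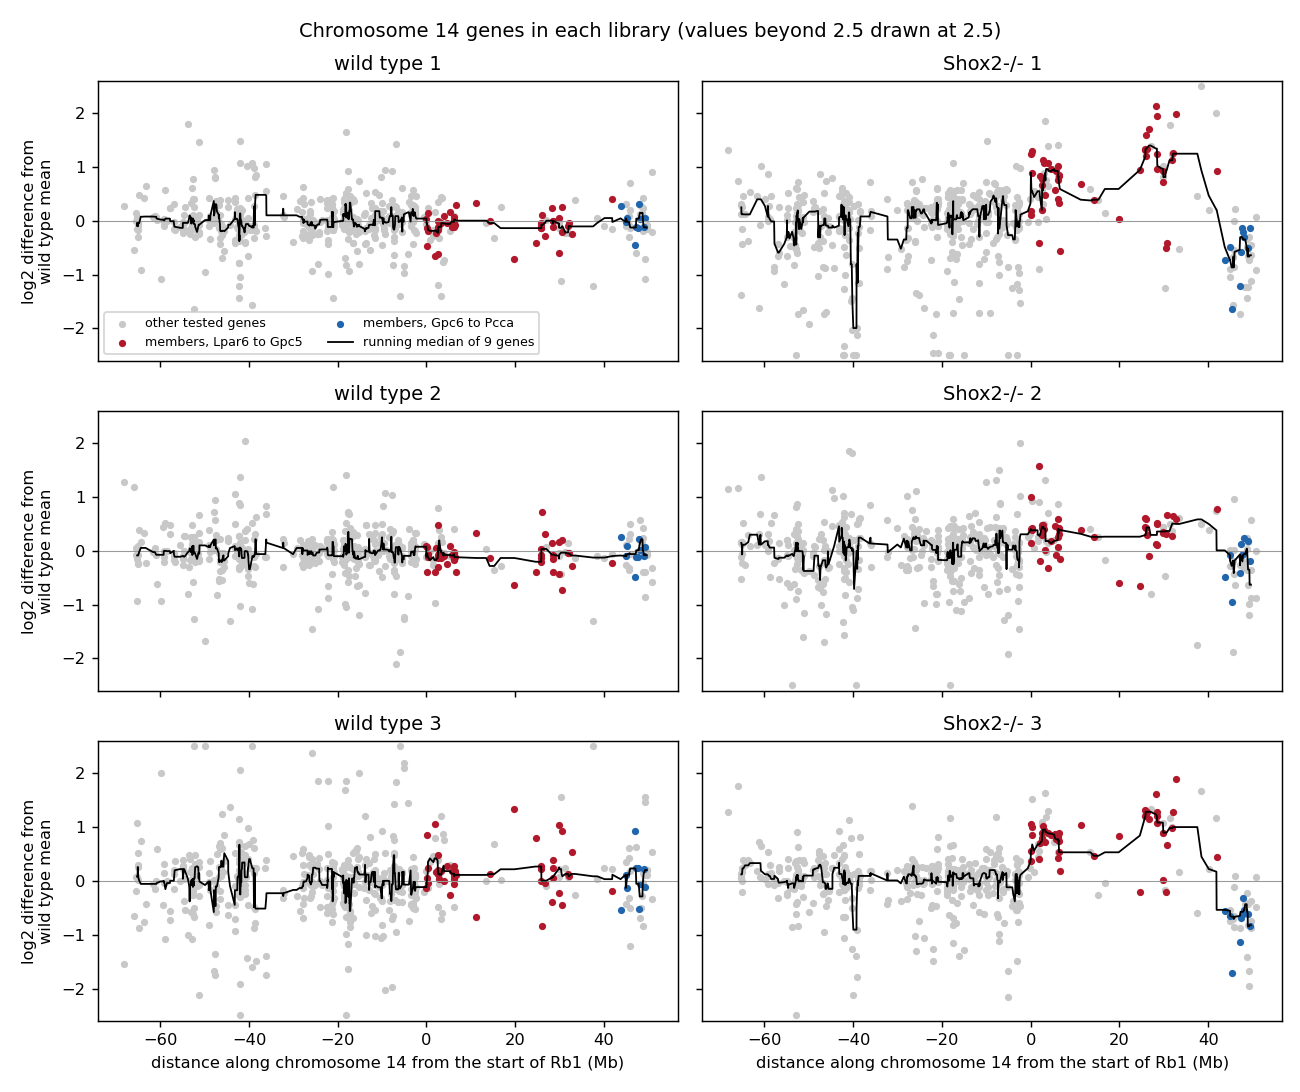
Log2 difference of each tested chromosome 14 gene from the wild type mean, by library (for a wild type library, from the mean of the other 2), against distance from the start of Rb1 in Mb. Red points are members from Lpar6 to Gpc5, blue points members from Gpc6 to Pcca, grey points other genes, and the line is a running median of 9 genes. In KO1 and KO3 the line lies above 0 over the first stretch and below 0 over the second. In KO2 it is closer to 0. The lines also leave 0 elsewhere: before Rb1, that of WT3 is at 0.67 at Pbrm1 and that of KO1 at -1.99 at Mapk8. Within the first stretch, WT3 is at 0.42 at Lcp1, where KO2 is at 0.28.

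The 2 stretches were compared in each library as the median over members of the log2 difference from the wild type mean. For Lpar6 to Gpc5 these medians were 0.93 in KO1, 0.39 in KO2 and 0.87 in KO3. As folds over the wild type mean, the medians were 1.88, 1.29 and 1.82. More than 1.5-fold higher were 33, 8 and 35 of the 46 members in KO1, KO2 and KO3. The wild type libraries, each against the other 2, had medians of -0.05, -0.09 and 0.13. All 3 libraries labelled Shox2-/- thus stood above the wild type libraries, with KO2 nearest to them.

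For Gpc6 to Pcca the medians were -0.50 in KO1, -0.08 in KO2 and -0.64 in KO3, or 0.707, 0.946 and 0.639 of the wild type mean. In the wild type libraries they were 0.01, -0.04 and 0.03. KO1 and KO3 each had 10 of 10 members below the wild type mean, and KO2 had 7 of 10. The 2 stretches therefore stood on opposite sides of 0 in KO1 and KO3, while in KO2 the members of the second stretch were close to the wild type libraries. The 19 other tested genes of that interval were lower in KO2, with a median of -0.28 and 13 of 19 below 0.

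Set against one another, the 9 pairs of a library labelled Shox2-/- and a wild type library gave medians of 0.24 to 0.99 over the first stretch and -0.76 to -0.05 over the second. Pairs of wild type libraries gave -0.01 to 0.17 and -0.0034 to 0.05. Pairs within the Shox2-/- label gave -0.61 to 0.56 and -0.69 to 0.47, so the spread inside that label was as wide as many of the differences between labels. KO2 was the lowest of the 3 for 37 of 46 members of the first stretch and the highest of the 3 for 9 of 10 of the second. It lay between all wild type libraries and both other libraries of its label for 27 and 4 of them.

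**Figure D2:**
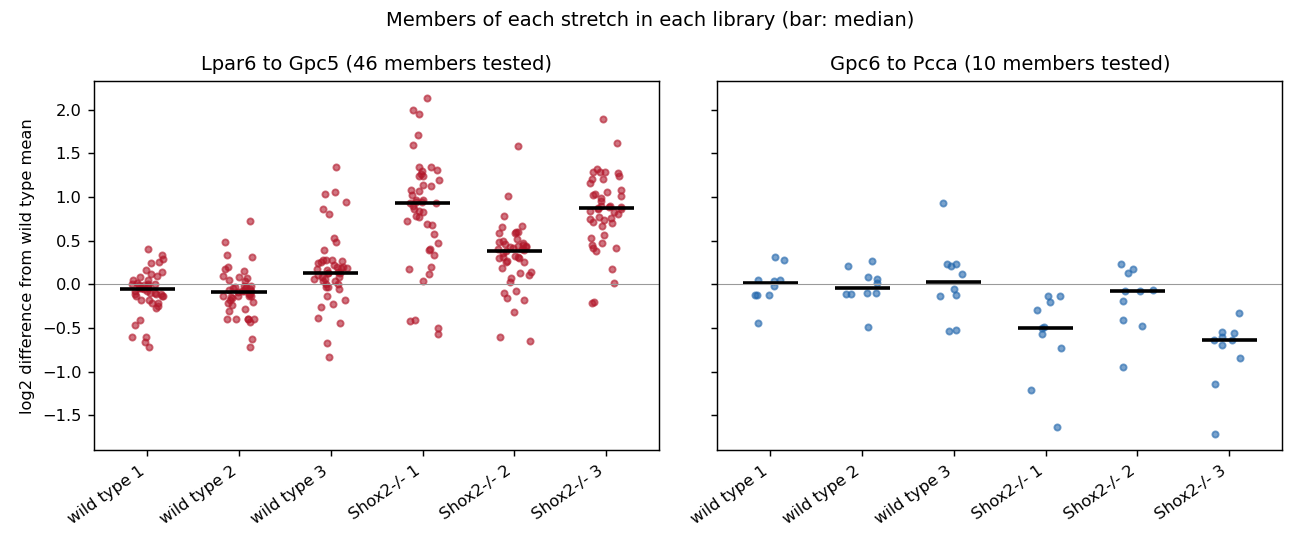
Log2 difference from the wild type mean of each tested member in each library, for the 46 members from Lpar6 to Gpc5 (left) and the 10 from Gpc6 to Pcca (right). Points are genes and bars are medians, which for KO1, KO2 and KO3 (drawn as Shox2-/- 1, 2 and 3) are 0.93, 0.39 and 0.87 on the left and -0.50, -0.08 and -0.64 on the right.

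Genes of the Y chromosome also differed among these libraries. All 7 that were tested were lower in KO1, KO2 and KO3 than in any wild type library, against 10.8% of all tested genes. Their median log2 change was -1.90. Zfy1, Gm29650 and Gm4017 passed the filter through the wild type libraries alone, so their lower values say nothing further. The median is the value of Gm4017, a pseudogene with 0 to 21 reads per library. The changes of Ddx3y, Eif2s3y, Kdm5d and Uty were -1.43, -1.93, -1.95 and -1.46. Ddx3y, an RNA helicase gene, had 4415, 4436 and 4353 normalized counts in WT1, WT2 and WT3 and 938, 4213 and 1096 in KO1, KO2 and KO3. Uty, a histone demethylase family gene, had 3416, 3405 and 2709 and 706, 2451 and 872. KO1 and KO3 were low in both genes and KO2 was nearer to the wild type libraries. In the low gene Zfy1 KO2 was not apart, with 14.9, 17.6 and 25.1 and 0, 1.79 and 0, and in Kdm5d, at 1249.8, 1208 and 893 and 187, 602 and 207, it lay between. Whether the 2 patterns have a common source was not tested.

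Along the chromosome the first stretch was not even. The 24 tested members from Rb1 to Pcdh8 had a median log2 change of 0.61, and their medians by library were 0.80, 0.39 and 0.79 in KO1, KO2 and KO3. In the gene-poor part from Pcdh17 to Dach1 the 4 members had a median change of 0.23. The 17 members from Mzt1 to Spry2 had a median change of 0.98, with 1.27, 0.44 and 1.21 by library, or 2.41, 1.35 and 2.30 times the wild type mean. The block from Mzt1 to Spry2 was therefore the one with the larger differences, and KO2 showed less of that step than KO1 and KO3. This block ends at 105896819, well before the turning point. The 3 tested genes that start in the 5 Mb from 110 Mb on had medians of 0.47, 0.38 and 0.22 in KO1, KO2 and KO3.

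The limits of the stretches were chosen from values of these libraries, so the sharpness of the edges was not tested. The nearest tested genes outside the members are given as a description. Before the first member, Rcbtb2, whose end overlaps Rb1, had a log2 change of 0.32 (SE 0.10), Fndc3a one of 0.11 (SE 0.11) and Gfra2 one of 0.79 (SE 0.25). The 444 other tested chromosome 14 genes that start before Rb1 had a median change of 0.05, with 248 higher and 196 lower. At the turning point, Gpc5 starts at 115092215 and had a change of 0.72 (SE 0.33), and Gpc6 starts at 116925315 and had one of -0.59 (SE 0.17). Just before Gpc5, Mir17hg, the host transcript of a microRNA cluster that promotes proliferation, had 717, 748 and 849 normalized counts in WT1, WT2 and WT3 and 3097, 1289 and 1732 in KO1, KO2 and KO3. Its groups did not overlap, and KO1 was highest and KO2 lowest of its label. After the last member starts, Ggact had a change of -0.96 (SE 0.20) and Tmtc4 one of -0.09 (SE 0.26). Tmtc4 was at 788, 806 and 857 and 595, 1210.2 and 633, so here KO2 was above the wild type libraries and KO1 and KO3 were below them.

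Genes that lie between the members but are not among them had like values. Of 31 such tested genes from Rb1 to Gpc5, 28 were higher, with a median log2 change of 0.56. Groups did not overlap for 16, where over all tested genes the share above was 12.8%. Of 19 from Gpc6 to Pcca, 18 were lower, with a median of -0.62. Groups did not overlap for 7, where over all tested genes the share below was 10.8%. The medians of these 19 by library were -0.72, -0.28 and -0.66 in KO1, KO2 and KO3. In KO2 these 19 thus lay further below 0 than the members did. The genes between the members were not used by the rule one by one, but the limits of the stretches were, so no test is given for them either. Diaph3, a formin that nucleates actin filaments, had 1558, 1616 and 1593 normalized counts in the wild type libraries and 2398, 2108 and 2298 in those labelled Shox2-/-, a change of 0.51 (SE 0.09), and its groups did not overlap. Slitrk5, a neuronal transmembrane gene, had 193, 181 and 191 and 1261, 266 and 599, again with KO1 high, KO3 next and KO2 nearest to the wild type libraries. Below the turning point, Gpr180 had 1225, 1131 and 1496 and 618, 1051 and 762, and the tight junction gene Cldn10, a low one, 21.6, 18.9 and 27.5 and 6.92, 5.36 and 13.3. Cldn10 passed the filter through the wild type libraries and KO3, so its lower values say nothing further.

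Whole chromosomes were closer to 0 than the stretches in KO1 and KO3. Over the 18 other autosomes, medians ranged from -0.15 to 0.10 in KO1, from -0.24 to 0.12 in KO2 and from -0.16 to 0.07 in KO3. In windows of 30 consecutive tested genes, the window from Pcdh9 to Mir17hg had the highest median of those on the autosomes and X in KO1 (1.22) and KO3 (1.12). The window that starts at Gpc6 had the lowest in KO3 (-0.66). In KO1 the window from Asic2 to Ccl4 on chromosome 11 was lower (-0.86, against -0.65 for the one at Gpc6), as was the window from BC049715 to St8sia1 on chromosome 6 (-0.70). In KO2 a chromosome 11 window from Rap1gap2 to Slc43a2 was higher (0.86, against 0.44 on chromosome 14). The lowest chromosome 14 window of KO2 ran from A430057M04Rik to Ccdc66 (-0.30), before Rb1 and not at Gpc6.

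Promoter sequence is shown for members at either extreme of the 2 stretches, because the members moved together while sharing little function. The windows are the 250 bases upstream of a RefSeq start site on GRCm38.p6, 5′ to 3′ on the gene's strand. Capitals mark GC boxes (GGGCGG or CCGCCC) and E boxes (CACGTG). On both strands, CCAAT boxes (CCAAT or ATTGG) and TATA boxes (TATAAA or TTTATA) were searched too. Spry2, with the largest change of the 46 members, has none of these letters at chr14:105896820-105897069 on the minus strand, and neither has Lpar6, whose KO1, KO2 and KO3 values were close together, at chr14:73237641-73237890 on the plus strand. Mzt1 and Bora, a divergent pair that were both higher, share the 85 bases between them, at chr14:99046137-99046221 and printed on the minus strand. Abcc4, with the largest change of the second stretch, is shown at chr14:118706220-118706469 on the minus strand.
Spry2: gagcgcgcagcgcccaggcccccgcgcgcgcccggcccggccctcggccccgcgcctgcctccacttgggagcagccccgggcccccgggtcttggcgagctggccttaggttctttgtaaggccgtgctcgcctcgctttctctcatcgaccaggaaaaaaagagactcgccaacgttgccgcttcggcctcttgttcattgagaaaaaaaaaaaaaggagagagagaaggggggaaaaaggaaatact
Lpar6: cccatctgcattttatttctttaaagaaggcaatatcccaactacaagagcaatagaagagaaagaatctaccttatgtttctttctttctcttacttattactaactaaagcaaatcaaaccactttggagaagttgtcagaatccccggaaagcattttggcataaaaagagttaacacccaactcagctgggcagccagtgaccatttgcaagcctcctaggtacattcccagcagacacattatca
Mzt1 to Bora: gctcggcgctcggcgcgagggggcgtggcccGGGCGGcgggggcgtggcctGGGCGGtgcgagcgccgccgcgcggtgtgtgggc
Abcc4: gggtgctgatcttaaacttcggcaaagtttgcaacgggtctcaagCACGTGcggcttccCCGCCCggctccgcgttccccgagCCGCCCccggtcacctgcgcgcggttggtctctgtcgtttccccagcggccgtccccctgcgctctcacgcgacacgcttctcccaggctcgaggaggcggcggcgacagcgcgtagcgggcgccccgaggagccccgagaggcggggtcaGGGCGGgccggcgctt

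Windows were found for 50 of the 57 members, 64 windows in all. A GC box was present in 32 of 54 windows of the first stretch and 7 of 10 of the second, against 32.7% of all 32851 windows in the table. A CCAAT box was present in 17 of 54 and 5 of 10, against 33.9%. TATA boxes were present in 8 and 1 (12.4% of all) and E boxes in 3 and 1 (6.02% of all). Windows rich in CpG (an observed to expected ratio above 0.6 and over 50% G and C, here with the 50 bases after the start site included) made up 39 of 54 and 6 of 10, against 33.3% of all windows. GC boxes and CpG-rich windows were thus more frequent in both stretches than in the table as a whole, by count and without a test. CCAAT, TATA and E boxes in the first stretch were near the shares of the table. The table was not limited to genes expressed here, whereas 56 of the 57 members passed the filter. The higher shares therefore cannot be read as a trait of these stretches. With 10 windows in the second stretch, the stretches were not compared with each other.

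Among cell cycle regulators of the first stretch, Rb1 encodes the retinoblastoma protein, which holds E2F factors inactive until cells commit to division. Rb1 (chr14:73183673-73325822, minus strand) had 571, 583 and 527 normalized counts in WT1, WT2 and WT3 and 607, 741 and 728 in KO1, KO2 and KO3. KO1 was the lowest of its label and close to the wild type libraries, the groups did not overlap, and the change was 0.30 (SE 0.13). Rgcc, a low regulator of cell cycle progression, had 31.5, 31.9 and 33.8 and 43.2, 33.96 and 43.7, a change of 0.30 (SE 0.25), from 19 to 59 reads per library. Mzt1, which recruits the gamma-tubulin ring complex, and Bora, an activator of Aurora A and Polo-like kinases in mitosis, had changes of 1.08 (SE 0.20) and 0.99 (SE 0.23). Pibf1, a protein of the centrosome, had one of 0.96 (SE 0.22), and Sugt1, a chaperone partner in kinetochore assembly, one of 0.63 (SE 0.15). In these 4 genes KO1 and KO3 lay well above KO2, which lay above the wild type libraries.

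Receptors and their regulators differed in how the libraries were ordered. Lpar6, a receptor for lysophosphatidic acid (chr14:73237895-73243294, plus strand), lies within Rb1 on the opposite strand. It had 1107, 1221 and 1211 normalized counts in WT1, WT2 and WT3 and 2787, 2370.4 and 2454 in KO1, KO2 and KO3. The 3 libraries labelled Shox2-/- were all about the same distance above the wild type libraries, at 2.36, 2.01 and 2.08 times their mean, and the change was 1.10 (SE 0.11). Here KO2 was not apart, unlike in most members.

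Spry2, an intracellular brake on fibroblast growth factor signalling (chr14:105891947-105896819, minus strand), had 866, 852 and 1243 and 3875, 1459 and 3608 normalized counts in the same order of libraries. KO1 and KO3 stood at 3.93 and 3.66 times the wild type mean and KO2 at 1.48, with no overlap between groups, and the change of 1.49 (SE 0.37) was the largest of the 46. Ednrb, an endothelin receptor known for its role in neural crest and vessels, had 2529, 2463 and 1831 and 1692, 3574 and 3587. Its order was another one: KO2 and KO3 were the highest libraries and KO1 the lowest of all 6, so the groups overlapped, with a change of 0.31 (SE 0.30). Dgkh, a diacylglycerol kinase, had a change of 0.64 (SE 0.16), and Kctd12, an auxiliary subunit of GABA-B receptors, one of 0.37 (SE 0.32).

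Endothelial markers differed between libraries as well. Summed over 6 of them, the level was 13947, 13994 and 3544 in WT1, WT2 and WT3 and 7984, 12288 and 11627 in KO1, KO2 and KO3. WT3 and KO1 were the lowest, as they were for Ednrb in their own groups, and none of the 6 markers was at 0 in every library. Their part in the values of Ednrb and of Pcdh17, which endothelium expresses too, was not tested. In bulk samples, fewer cells of a type and less RNA per cell cannot be told apart.

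Members that act in trafficking and at membranes differed in the size of their changes, which was largest in Tbc1d4. Tbc1d4, a Rab GTPase-activating protein that insulin signalling controls (chr14:101442360-101609191, minus strand), had 934, 897 and 699.5 normalized counts in WT1, WT2 and WT3 and 3678, 919 and 2563 in KO1, KO2 and KO3. KO2 fell inside the wild type range, so the groups overlapped, while KO1 and KO3 were at 4.36 and 3.04 times the wild type mean. The change was 1.29 (SE 0.46), the second largest among the 46. Cog3, a subunit of the Golgi tethering complex, had a change of 0.59 (SE 0.14). Itm2b, a membrane protein that limits amyloid formation, had 5229.8, 5401 and 9649 and 7341, 7171 and 9567, where WT3 was the highest library and the groups overlapped, with a change of 0.30 (SE 0.25).

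Transcription factors were mixed. Tsc22d1, a leucine zipper protein that TGF-beta induces, was among the more abundant members, with 12767, 12205 and 14146 normalized counts in WT1, WT2 and WT3 and 18093, 13232 and 21372 in KO1, KO2 and KO3. KO2 lay within the wild type range and KO1 and KO3 above it, a change of 0.40 (SE 0.18). Klf5, a zinc finger factor of smooth muscle remodelling, was low at 38.2, 50.8 and 24.3 and 93.4, 44.7 and 89.6, and again only KO1 and KO3 were above all wild type libraries, a change of 0.98 (SE 0.40). Klf12, of the same family, had a change of 0.92 (SE 0.43), with KO2 inside the wild type range too.

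Dach1, a corepressor of the retinal determination network, had 136, 137 and 239 and 318, 105 and 142. KO1 was highest and KO2 lowest of all 6, WT3 was above KO2 and KO3, and the change of 0.03 (SE 0.43) was the smallest in size of the 46. Elf1, an ETS factor, had a change of 0.42 (SE 0.11) with groups that did not overlap. Med4, a Mediator subunit, and Gtf2f2, a subunit of general factor TFIIF, had changes of 0.90 (SE 0.22) and 0.88 (SE 0.18), and in both the groups did not overlap.

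RNA processing genes came next. Dis3, a catalytic nuclease of the RNA exosome (chr14:99075206-99099770, minus strand), had 1993, 2067 and 2037 normalized counts in WT1, WT2 and WT3, which differed little from one another. It had 6121, 3052 and 4963 in KO1, KO2 and KO3, all above the wild type libraries, a change of 1.15 (SE 0.24). Rbm26, an RNA-binding protein, had a change of 0.79 (SE 0.22), and Nufip1, which helps assemble small nucleolar ribonucleoproteins, one of 0.81 (SE 0.17). Wbp4, a spliceosome protein, had 0.73 (SE 0.16) and Tdrd3, a Tudor domain protein that reads methylated arginine, 0.37 (SE 0.10), and in these 5 genes the groups did not overlap. Zc3h13, part of the RNA m6A methylation machinery, had 0.45 (SE 0.26), and its KO2 value of 1157 was below all 3 wild type libraries.

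**Figure D3:**
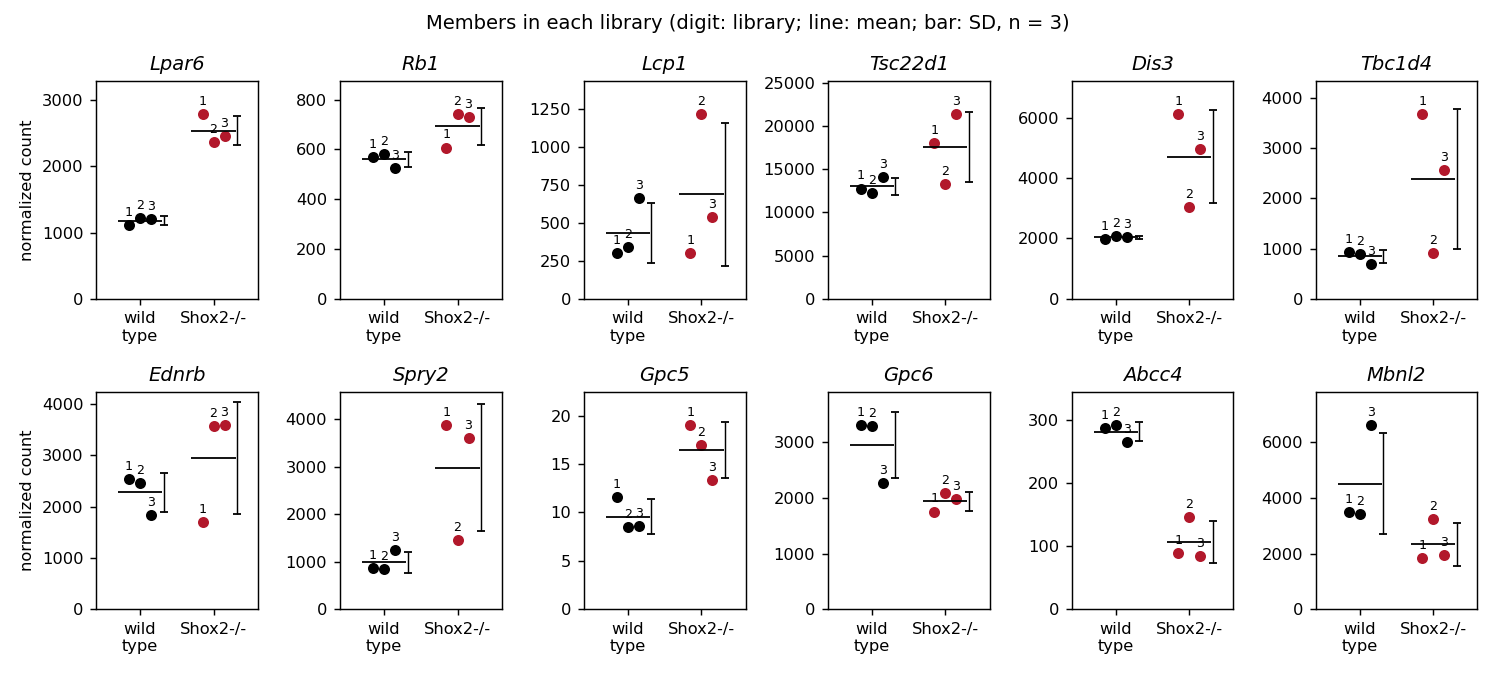
Normalized counts of 12 members in each library, on axes that start at 0. Points are libraries with their number in the group, black for wild type and red for Shox2-/-, lines are means and bars are SDs (n = 3). In Dis3, Tbc1d4 and Spry2 the red points of libraries 1 and 3 stand above that of library 2, in Lpar6 the 3 red points are close together, and in Gpc6, Abcc4 and Mbnl2 the red points are below the black ones.

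Genes of protein modification and turnover had changes from 0.70 in Naa16 to 1.24 in Uchl3. Uchl3, a ubiquitin hydrolase (chr14:101653967-101696125, plus strand), had 261, 216 and 312 normalized counts in WT1, WT2 and WT3 and 1005, 366 and 637 in KO1, KO2 and KO3. KO1 was highest at 3.82 times the wild type mean, the groups did not overlap, and the change was 1.24 (SE 0.35). Mycbp2, a very large ubiquitin ligase of axon development, had 5629.8, 5965 and 4969.6 and 10539.8, 6903 and 10258, again without overlap, a change of 0.72 (SE 0.18). Commd6, a subunit of the COMMD complex of endosomal sorting, had 0.99 (SE 0.21). Ndfip2, an adaptor of Nedd4-type ligases, had 1.07 (SE 0.18), and Naa16, a subunit of an N-terminal acetyltransferase, 0.70 (SE 0.20).

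The mitochondrial members of the first stretch named here had changes of 0.54 to 0.73. Pcca, of the second stretch, went the other way at -0.39. Sucla2, a subunit of succinyl-CoA ligase in the citric acid cycle, had 2380.1, 2529 and 2898 normalized counts in WT1, WT2 and WT3 and 4822, 3506 and 4716 in KO1, KO2 and KO3, with no overlap. Its change was 0.73 (SE 0.15). Those of Slc25a30, a carrier of the inner membrane, Dnajc15, a cochaperone of protein import, and Mtrf1, a translation release factor, were 0.70 (SE 0.20), 0.67 (SE 0.22) and 0.71 (SE 0.15). Vwa8, a mitochondrial ATPase, had 0.54 (SE 0.25). Its KO2 value of 584.6 was close to that of WT1, 585.9, the lowest of the wild type libraries.

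Adhesion genes differed from one another. Pcdh17, a protocadherin, had 1042, 1044 and 654 normalized counts in WT1, WT2 and WT3 and 1439, 1169 and 1826 in KO1, KO2 and KO3. Its groups did not overlap, with WT3 the lowest, and its change was 0.70 (SE 0.23). Pcdh9, another member of the family, had 89.6, 93.2 and 234 and 128, 82.2 and 225, where WT3 and KO3 were the high libraries, and a change of 0.09 (SE 0.48). Pcdh8 had 29.9, 21.5 and 27.5 and 17.3, 23.2 and 29.6, from 10 to 40 reads per library, and a change of -0.18 (SE 0.32) that is within the spread of either group. Lmo7, a LIM and PDZ protein of cell junctions, had 0.72 (SE 0.25), and Enox1, a surface oxidase, 0.54 (SE 0.34).

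Slain1, which stabilises growing microtubule ends, was the other member with a change below 0 in the first stretch. It had 44.8, 35.2 and 76.9 and 34.6, 61.7 and 42.96, with WT3 highest, KO1 lowest and overlapping groups, a change of -0.13 (SE 0.37). Tpt1, a growth-linked and abundant protein in most cells, had 428, 709 and 601 and 652, 788 and 950.3, where KO1 and WT2 overlapped, a change of 0.47 (SE 0.22). Tpt1 has 6 annotated pseudogenes and holds Snora31 in an intron, so its reads are uncertain.

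Lcp1, an actin-bundling protein of leukocytes, had 300.4, 338 and 664 normalized counts in WT1, WT2 and WT3 and 304, 1218 and 542 in KO1, KO2 and KO3. KO2 was the highest library and WT3 the second, KO1 was next to WT1, and the change was 0.52 (SE 0.51). Summed over 9 leukocyte markers, the level was 1125, 1049 and 3191 in WT1, WT2 and WT3 and 315, 5134 and 567 in KO1, KO2 and KO3, with KO2 and WT3 high as well. KO1 and KO3 were the lowest libraries for the markers but not for Lcp1. None of the 9 was at 0 in every library, and Ptprc, the gene of the pan-leukocyte protein CD45, was at 163, 158 and 525 and 25.9, 1151 and 72.6. The part of leukocytes in the values of Lcp1 was not tested. Epsti1, an interferon-induced gene, had 0, 5.87 and 18.1 and 3.46, 7.15 and 0.740, at most 23 reads in a library, and was not tested.

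At the turning point the 2 glypicans, proteoglycans that tether growth factors to the cell surface, went in opposite directions. Gpc5 (chr14:115092215-116525179, plus strand) was near the detection limit, with 11.6, 8.47 and 8.64 normalized counts in WT1, WT2 and WT3 and 19.03, 16.98 and 13.3 in KO1, KO2 and KO3. These stand for 7 to 19 reads per library, and the groups did not overlap. Gpc5 passed the filter of at least 10 in 3 libraries through WT1 and the 3 libraries labelled Shox2-/-. The direction of Gpc5 and its lack of overlap therefore say nothing further. Gpc6 (chr14:116925315-117976544, plus strand) had 3306, 3282 and 2270.5 and 1754, 2083 and 1981, lower in all 3 libraries labelled Shox2-/- and with WT3 the lowest of the wild type, a change of -0.59 (SE 0.17).

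Further along, Abcc4, which exports cyclic nucleotides and drugs from cells (chr14:118482692-118706219, minus strand), had 287, 292 and 265 normalized counts in WT1, WT2 and WT3 and 89.97, 146 and 85.2 in KO1, KO2 and KO3. KO1 and KO3 were at 0.320 and 0.303 of the wild type mean and KO2 at 0.518, so KO2 was between. The change of -1.43 (SE 0.24) was the largest in size of the 10. Mbnl2, a splicing regulator of the muscleblind family, had 3500.4, 3427 and 6626 and 1856, 3233 and 1947, where WT3 was well above WT1 and WT2 and KO2 just below them, a change of -0.92 (SE 0.31). In both the groups did not overlap.

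In the rest of the second stretch KO2 was within or above the wild type range for 5 of 7 members. Ipo5, a nuclear import receptor, had 6362, 6419.8 and 7509 normalized counts in WT1, WT2 and WT3 and 6135, 6406 and 4325 in KO1, KO2 and KO3. KO3 was low, KO1 and KO2 were close to WT1 and WT2, and the change was -0.28 (SE 0.17). Stk24, a Ste20-type kinase, had 1487, 1466 and 1423 and 1185, 1717 and 999, with KO2 the highest library of all 6 and a change of -0.20 (SE 0.19). Farp1, a FERM domain protein of synapses, had 3104, 2966 and 2107 and 2343, 2575 and 2144, where WT3 was the lowest library and the change was -0.19 (SE 0.16). Pcca, a subunit of propionyl-CoA carboxylase (chr14:122534324-122891100, plus strand), had 370.1, 372 and 342 and 329, 316 and 201, all 3 below the wild type libraries with KO3 lowest, a change of -0.39 (SE 0.21). Tgds, a nucleotide sugar dehydratase, had -0.40 (SE 0.16). Rap2a, a small GTPase, had -0.38 (SE 0.22) and Tm9sf2, an endosomal membrane protein, -0.31 (SE 0.21), and in these 2 genes the KO2 value was within or above the wild type range while KO1 and KO3 were below it.

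Some values cannot be assigned to 1 gene with certainty. Of the 56 tested members 15 overlap another tested gene, and no source says whether the counting used strand, so reads of such partners cannot be told apart. Rb1 shares 24171 bases with Rcbtb2 and 5400 with Lpar6, Dis3 shares 347 with Pibf1, Wbp4 327 with Elf1, and Pcca 74878 with Ggact.

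Relatives of the members on other chromosomes were compared to see whether the families moved. Of 79 tested paralogues elsewhere, 42 were higher and 37 lower, with a median log2 change of 0.04. Groups did not overlap for 10 above and 9 below, where over all tested genes the shares were 12.8% and 10.8%. Limma called 0, with 13 at an unadjusted p under 0.05 (14.2% over all tested genes) and 2 called by limma voom with sample quality weights. Lpar4, another lysophosphatidic acid receptor, had 1708, 1730.4 and 2251 normalized counts in WT1, WT2 and WT3 and 3564, 2837 and 3107 in KO1, KO2 and KO3, a change of 0.75 (SE 0.15) (adjusted p = 0.191 in limma). Rbl2, a relative of Rb1, had 868, 864 and 1598 and 483, 589.9 and 654, lower in all 3 libraries labelled Shox2-/-, a change of -0.89 (SE 0.26) (adjusted p = 0.253 in limma). Pcdh11x, another protocadherin gene, had -0.51 (SE 0.15). Ednra, the other endothelin receptor, had 886, 944 and 922 and 629.8, 639 and 585, a change of -0.57 (SE 0.10) (adjusted p = 0.183 in limma). Its groups did not overlap, whereas those of Ednrb did.

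Genes of the Rb1 pathway, taken from a list of 39 E2F factors, cyclins, inhibitors and replication targets, were mostly higher. Of the 39 tested, 33 were higher and 6 lower, with a median log2 change of 0.28. Without KO1 the median was 0.16. Groups did not overlap for 19 above and 3 below, against 12.8% and 10.8% of all tested genes. In limma 0 passed, while 16 had an unadjusted p under 0.05 (14.2% of all tested genes) and limma voom with sample quality weights called 3. Fibroblast markers differed between the labels too, though not all in 1 direction. Of 8 tested, 6 were lower under the label Shox2-/- and 2 were higher. Groups did not overlap for 5 below and 1 above, where over all tested genes the shares were 10.8% and 12.8%. Summed over 9 fibroblast markers, the level was 379282, 374562 and 596993 normalized counts in WT1, WT2 and WT3. It was 180839, 235398 and 280494 in KO1, KO2 and KO3. Such a sum weighs abundant genes most. None of the 9 was at 0 in every library. Col1a2, a collagen gene among them, had a change of -1.92 (SE 0.42). Their part in the values of the pathway genes and of the members was not tested. Cdc6, a replication licensing factor, had 1286, 1132 and 887 normalized counts in WT1, WT2 and WT3 and 2092, 2077 and 1515 in KO1, KO2 and KO3, a change of 0.78 (SE 0.18) (adjusted p = 0.226 in limma). E2f5, a repressive E2F factor, had 0.40 (SE 0.11). Cdkn2a, which encodes inhibitors that act through Rb1 and p53, had 121, 121 and 283 and 15.6, 34.9 and 34.8, the change furthest from 0 of the list at -2.54 (SE 0.45) (adjusted p = 0.182 in limma). In Cdc6 and E2f5, KO2 lay between KO1 and KO3, not between them and the wild type libraries as it did for 27 of 46 members.

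In the other 2 pathway lists members moved both ways and 0 passed in limma. Of 20 genes of glypicans and heparan sulfate, 12 were higher and 8 lower. In limma 3 had an unadjusted p under 0.05, where over all tested genes the share was 14.2%. Sdc4, a syndecan, had 2124, 2114 and 2372 and 1171, 1690.2 and 1564 in the same library order, a change of -0.59 (SE 0.15). Notum, which releases glypicans and blocks Wnt proteins, had -1.13 (SE 0.35), Sdc1 0.34 (SE 0.15) and the sulfotransferase gene Hs6st1 -0.30 (SE 0.14). Of 5 tested genes of the endothelin axis 2 were higher and 3 lower. There 1, Ednra, had an unadjusted p under 0.05 in limma, against the same 14.2% of all tested genes. The ligand genes Edn1 and Edn3 had changes of -0.43 (SE 0.57) and -0.43 (SE 0.35), and Ece1, whose enzyme activates them, 0.23 (SE 0.31).

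**Figure D4:**
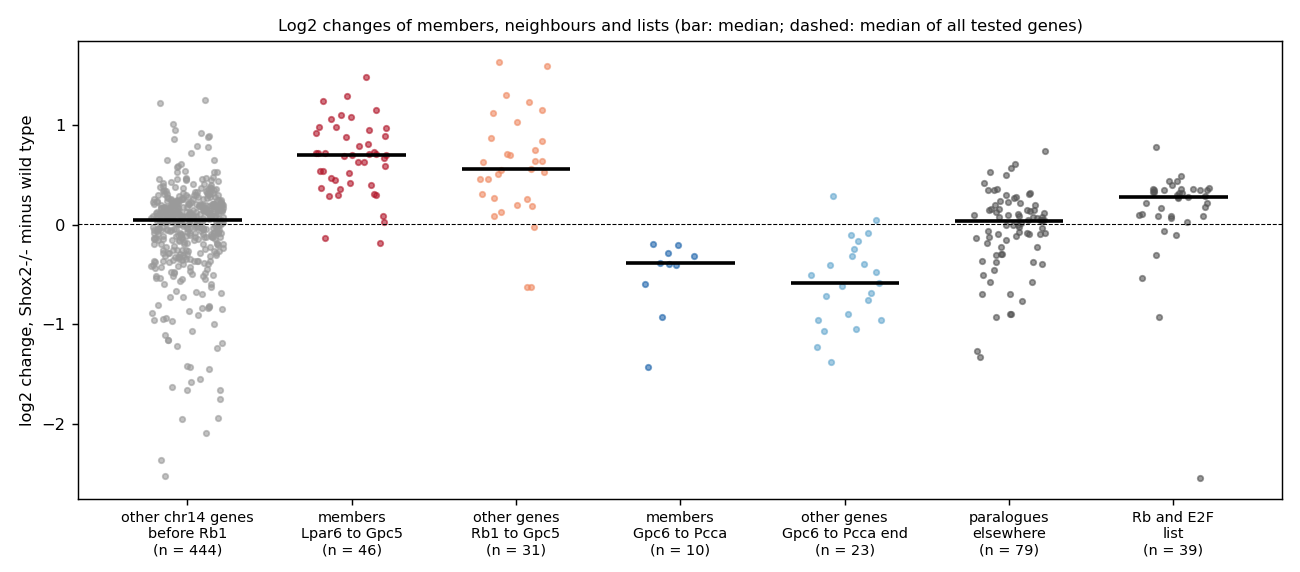
Log2 changes between labels of single genes (points), by group, with the group median as a bar and the median of all tested genes as a dashed line. Members and the other genes between them lie mostly above 0 from Rb1 to Gpc5 and mostly below 0 from Gpc6 on, where the last group also holds 4 genes past Pcca, while the 444 genes before Rb1 and the 79 paralogues lie around 0 and the 39 genes of the Rb1 pathway have a median of 0.28.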

How the data were processed

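RNA sequencing measured gene levels in 3 libraries labelled wild type and 3 labelled Shox2-/-. Per the submitters' processing notes, the authors used CASAVA 1.8.2, BWA, HTSeq, DESeq2 1.14.0 and build mm10, with no role or order given. The deposited values are a unit of another kind than raw counts: from the values they are gene-level counts divided by 1 factor per library. Division by the step of each library gave whole reads for 100% of values within 0.1 reads. The recovered reads came to 13504683, 34650564 and 29916220 in WT1, WT2 and WT3, and to 13782017, 26199927 and 31151471 in KO1, KO2 and KO3. The shallower libraries carry more counting error. Strand use in the counting is not given in the sources used here.

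Values were analysed as log2(value + 1) with limma 3.58.1 in R 4.3.3 (1 term for the label, empirical Bayes with a trend, two-sided, Benjamini-Hochberg adjustment), for the 17034 genes that reached 10 in 3 or more libraries. On this scale changes of low genes come out too small. The threshold for a call was an adjusted p of 0.05. The difference of a library is from the mean log2 value of the wild type libraries, and of a wild type library from that of the other 2. Positions are from GENCODE M21 on GRCm38, the assembly of mm10, which held 30484 of the 30631 IDs. Promoters are from the RefSeq table of GRCm38.p6.

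The members, their limits and the gene lists were chosen with earlier results of these data known. Values in each library are given for the first and last member of each stretch, members of textbook function and the 3 largest and 3 smallest changes of each stretch, and other genes were added after their values were seen. Alternatives were another pseudocount, other filters and scalings, limma voom with sample quality weights, a block for the Diff9 libraries, WT1 and WT2 averaged, and each library left out in turn.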

Additional observations from a re-analysis of the deposited data

How the results depend on the processing

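The median log2 changes of both stretches kept their direction in all 15 alternatives, at 0.59 to 0.87 for Lpar6 to Gpc5 and -0.56 to -0.19 for Gpc6 to Pcca, and leaving out each library in turn gave these same limits. No label number pairs the libraries, but 3 titles, those of WT1, WT2 and KO3, carry Diff9. With a replicate block for them, the medians were 0.71 and -0.48, 0 genes were called, and the other genes before Rb1 had 0.031. The edgeR and DESeq2 alternatives were not run. Calls moved with the setting. Limma called 2 genes with no filter, 0 to 51 with a library left out (51 without KO2, 0.299%) and, by voom with sample quality weights, 303 (1.78%). Members called were 23 by voom and 0 to 15 with a library left out (15 without KO2). By voom 2 paralogues and 3 genes of the Rb1 pathway were called. The rule used this contrast, so nothing is read from the members' counts.

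Other genes before Rb1 had medians of -0.030 with no filter, 0.077 with the stricter one, 0.010 and -0.011 with scaling by totals and by upper quartiles, 0.037 with WT1 and WT2 averaged, and 0.039 to 0.054 with a library left out. The median of other genes from Rb1 to Gpc5 was 0.14 with no filter, which added genes of few reads. For the 4 genes after Pcca it was -0.017 with the stricter filter, which left 2, and -0.55 to -0.23 with a library left out (-0.55 without KO2). For the paralogues it was -0.016 with upper quartiles, 0.0014 with WT1 and WT2 averaged and -0.026 to 0.046 with a library left out. For Gpc6 to Pcca, the wild type medians were 0.050 in WT1 and -0.031 in WT3 with scaling by totals, and -0.048 to -0.0034 in WT2 with a library left out. By voom Edn1 changed sign to 0.17 and Ece1 to -0.15. With a library left out, Edn1 ranged from -0.85 to 0.28 and Ece1 from -0.17 to 0.44 (sign changed without WT3 in both), and Tmtc4 from -0.41 to 0.10 (sign changed without KO1, and without KO3 at 0.056). Of members with small changes, Ednrb then ranged from 0.13 to 0.67, Itm2b from 0.14 to 0.58, Ipo5 from -0.39 to -0.11, Stk24 from -0.42 to -0.032 and Farp1 from -0.37 to -0.091. The causes were not tested. Over the alternatives Dach1 ranged from -0.43 to 0.37, Slain1 from -0.37 to 0.24, Pcdh8 from -0.36 to 0.042 and Lcp1 from -0.0030 to 1.00. Depth limits the low members most, Gpc5 with 7 to 19 reads and Pcdh8 with 10 to 40.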

Other observations

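Outside chromosome 14, other runs of neighbouring genes differed from the wild type mean, some in 1 library and some in several. Their limits were chosen after the values were seen. On chromosome 11 from 74 to 80 Mb, 116 tested genes had a median log2 difference from the wild type mean of 0.54 in KO2, with 99 of 116 above 0, against 0.06 in KO1 and in KO3. In the remaining 1319 genes of chromosome 11 the medians were -0.11, 0.06 and -0.11 in KO1, KO2 and KO3. Other parts of chromosome 11 were as high in KO2, such as the steps of 2 Mb that start at 2 Mb (0.53, 32 genes) and at 60 Mb (0.56, 45 genes), where KO1 had 0.17 and 0.020 and KO3 0.23 and 0.079.

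On chromosome 1, in steps of 5 Mb that hold at least 20 tested genes, 26 of 26 medians were below 0 in KO2, from -0.46 to -0.10, against 16 in KO1 and 13 in KO3. On chromosome 8, medians were below 0 in 17 of 18 such steps in KO1, 17 in KO2 and 18 in KO3, and in 12, 14 and 5 in WT1, WT2 and WT3. None of these runs was tested.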
